A study of Homo sapiens with 9 samples.

Results

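Genes of the Wnt pathway were followed in MDA-MB231 cells, a human breast cancer line of triple-negative, mesenchymal type, after hairpins against Coco had been introduced. The members were every probe set whose only gene symbol in the platform annotation was LEF1, TCF7, TCF7L2, DKK1, DKK3, WNT5A, WNT5B, FZD2, FZD7 or AXIN2. This gave 21 of the 22215 probe sets tested, from 8 of the 10 genes, and no probe set was named TCF7 or AXIN2 in the annotation used here. A probe set is a group of short probes on an Affymetrix array that reads 1 stretch of a transcript near its 3′ end. The probe sets of 1 gene need not read the same stretch, and their levels can differ. There were 3 groups of 3 arrays, each a separate biological replicate per the labels. The groups were cells with shRNA #2 (shco2), cells with shRNA #4 (shco4) and cells with a control hairpin (shscramble, called scramble below). All 3 had been made with a lentiviral vector that integrates into the genome, so that the scramble cells carry a vector and a hairpin too, and all were grown in DMEM with 10% serum. The labels do not say whether a line was a clone or a pool, and a difference between lines cannot be told apart from a difference between hairpins.

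Wnt proteins are secreted ligands that bind Frizzled receptors. In the canonical branch this stops the destruction of beta-catenin, which then enters the nucleus and joins the TCF and LEF factors on DNA to switch on target genes. In the other branches, for which WNT5A and WNT5B are the usual examples, Frizzled and its partners act on the cytoskeleton and cell polarity without beta-catenin. Coco, the product of DAND5, is a secreted antagonist of TGF-beta family ligands, and in the frog Xenopus it was found to block Nodal, BMP and Wnt.

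The stretches of DNA upstream of LEF1, DKK1 and TCF7L2 are shown. LEF1 had the largest rise among the members and DKK1 a lower level in both hairpin lines. TCF7L2 differed between hairpins, though its calls hung on single arrays. WNT5B, whose difference between hairpins was steadier, is not shown, and its windows held no match. They are the 250 bases before a transcript start in RefSeq (GRCh38.p14), 5′ to 3′ on the gene's strand, in lower case, and matches to the TCF/LEF motif are in capitals. The letters searched, on both strands, were CTTTGAA, then CTTTGAT, then CTTTGTA, and last CTTTGTT. For TCF7L2, which has 3 starts in the table, the only start with a match is shown.
LEF1, chr4:108166302-108166551, minus strand: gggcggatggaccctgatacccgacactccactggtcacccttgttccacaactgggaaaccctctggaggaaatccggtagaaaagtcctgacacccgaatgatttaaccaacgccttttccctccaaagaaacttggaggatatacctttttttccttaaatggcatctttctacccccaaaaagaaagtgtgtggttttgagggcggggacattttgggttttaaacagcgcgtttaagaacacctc
DKK1, chr10:52314031-52314280, plus strand: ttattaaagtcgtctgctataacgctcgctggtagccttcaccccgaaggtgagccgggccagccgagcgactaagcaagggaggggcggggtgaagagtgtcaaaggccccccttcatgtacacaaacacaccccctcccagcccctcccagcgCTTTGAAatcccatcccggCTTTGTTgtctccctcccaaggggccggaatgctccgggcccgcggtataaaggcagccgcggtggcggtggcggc
TCF7L2, chr10:113126383-113126632, plus strand: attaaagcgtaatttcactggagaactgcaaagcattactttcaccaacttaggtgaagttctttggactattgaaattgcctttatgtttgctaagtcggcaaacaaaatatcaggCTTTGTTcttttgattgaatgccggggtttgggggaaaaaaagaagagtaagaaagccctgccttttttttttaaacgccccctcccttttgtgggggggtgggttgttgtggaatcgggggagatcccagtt
The DKK1 window held CTTTGAA, starting 95 bases before the start, and CTTTGTT at 76 bases. The TCF7L2 window held CTTTGTT at 133 bases, and the LEF1 window held none of these runs. The table held 11 windows for 6 of the 10 genes (LEF1, TCF7, TCF7L2, DKK1, WNT5A and WNT5B). A match was found in 3 of the 11, against 12% of 35116 windows of all genes. Such a match is a run of letters and not a measured binding site. FZD7, FZD2, DKK3 and AXIN2 were not in the table.

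Array medians lay between 122.5 and 129.6 intensity units on the authors' scale, and the number of arrays sets the precision of every value. For ACTB the signal near the 3′ end over that near the 5′ end, which tracks RNA integrity, was 1.082 to 1.113 with shco2, 1.122 to 1.139 with shco4 and 1.07 to 1.101 in scramble. The ACTB ratio of every shco4 array was thus above those of the other groups, which overlapped each other. For GAPDH this ratio was 0.878 to 0.939, 0.882 to 0.904 and 0.868 to 0.958 in the same groups, and all of them overlapped. The summed level of 6 mesenchymal markers of this line was 26829 to 28069 with shco2, 33800 to 36465 with shco4 and 40284 to 41800 in scramble. With shco2 each of the 6 averaged lower than in scramble, while with shco4 they moved in different directions. CAV1 averaged 3670 with shco2, 8953 with shco4 and 9483 in scramble, and MSN 2018, 4332 and 4634. AXL averaged 8294 with shco2, 2176 with shco4 and 9357 in scramble, VIM 9858, 12847 and 12333 and CD44 3649, 6714 and 5224 in these groups, and the dimmest, SPARC, averaged 20.3 with shco2, 16.1 with shco4 and 35.9 in scramble. The summed level of 8 luminal breast markers was 3267 to 3337 with shco2, 5449 to 5907 with shco4 and 5643 to 7223 in scramble. Most of it was KRT19 (2162 with shco2, 4575 with shco4 and 4991 in scramble), and PGR and FOXA1 were at the floor of 16 on all arrays. With shco4 the luminal markers moved in different directions too, with CDH1 at 212 against 96.6 in scramble and EPCAM at 230 against 567. With shco2 both averaged lower than in scramble (38.6 and 511), as did GATA3, KRT19 and ERBB3. The dim ESR1 averaged 30.8 with shco2 and 25.3 in scramble. The summed level of 6 fibroblast markers was 80 to 138 with shco2, 249 to 392 with shco4 and 129 to 172 in scramble, with FAP at the floor on all arrays. That of 3 blood cell markers was 59 to 115, 144 to 307 and 71 to 121 in the same groups. The higher fibroblast sum with shco4 came from LUM, which averaged 8.48 with shco2, 221 with shco4 and 20.8 in scramble, while PDGFRB (50.5 with shco4 and 60.2 in scramble), COL3A1 (7.25 and 15) and DCN (38.6 and 39) were not higher than in scramble. The higher blood cell sum came from CD14, at 56.5 with shco2, 161 with shco4 and 57.2 in scramble. The part of these levels in the results below was not tested. No probe set carried the symbol DAND5, so the knockdown itself was not analysed here.

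With shco2, WNT5B and LEF1 were higher than in scramble, and FZD7 and DKK1 were lower. With shco4, FZD2 and DKK1 were lower. A block on replicate number in the fit ended this DKK1 call, and added rises of FZD7 at 203706_s_at and TCF7L2 at 212762_s_at. Between the hairpins, FZD7 and TCF7L2 were higher with shco4 than with shco2, and LEF1, FZD2 and WNT5B were lower. Values under 16 were set to 16 (the floor), log2 was taken, and limma was fitted to all 9 arrays. A probe set is said to pass, rise or fall where the p-value, adjusted by Benjamini-Hochberg over all probe sets, was under 0.05. For shco2 against scramble 5 of the 21 probe sets passed (23.8%), 2 up and 3 down, against 20.7% of all probe sets (10.7% up and 9.95% down). For shco4 against scramble 2 passed (9.52%), both down, against a background of 18.8% (9.05% up and 9.75% down), and for shco4 against shco2 9 passed (42.9%), 6 up and 3 down, against 31.0% (14.9% up and 16.1% down). The median log2 fold change over the 21 was 0.00, 0.20 and 0.27 in these comparisons, and over all genes it was 0.00 in each. Both shares against scramble were thus near or under the background. In these bulk samples, fewer cells with a transcript and less of it per cell cannot be told apart. The direction for shco4 against scramble depended on the fit, with 2 up and 1 down when replicate number was blocked and 1 up and 1 down with medians centred. The count for shco4 against scramble was 1 when any 1 of shco2 replicates 1 and 2, shco4 replicate 1 and the 3 scramble arrays was dropped, and that for shco4 against shco2 was 5 without shco2 replicate 3.

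**Figure D1:**
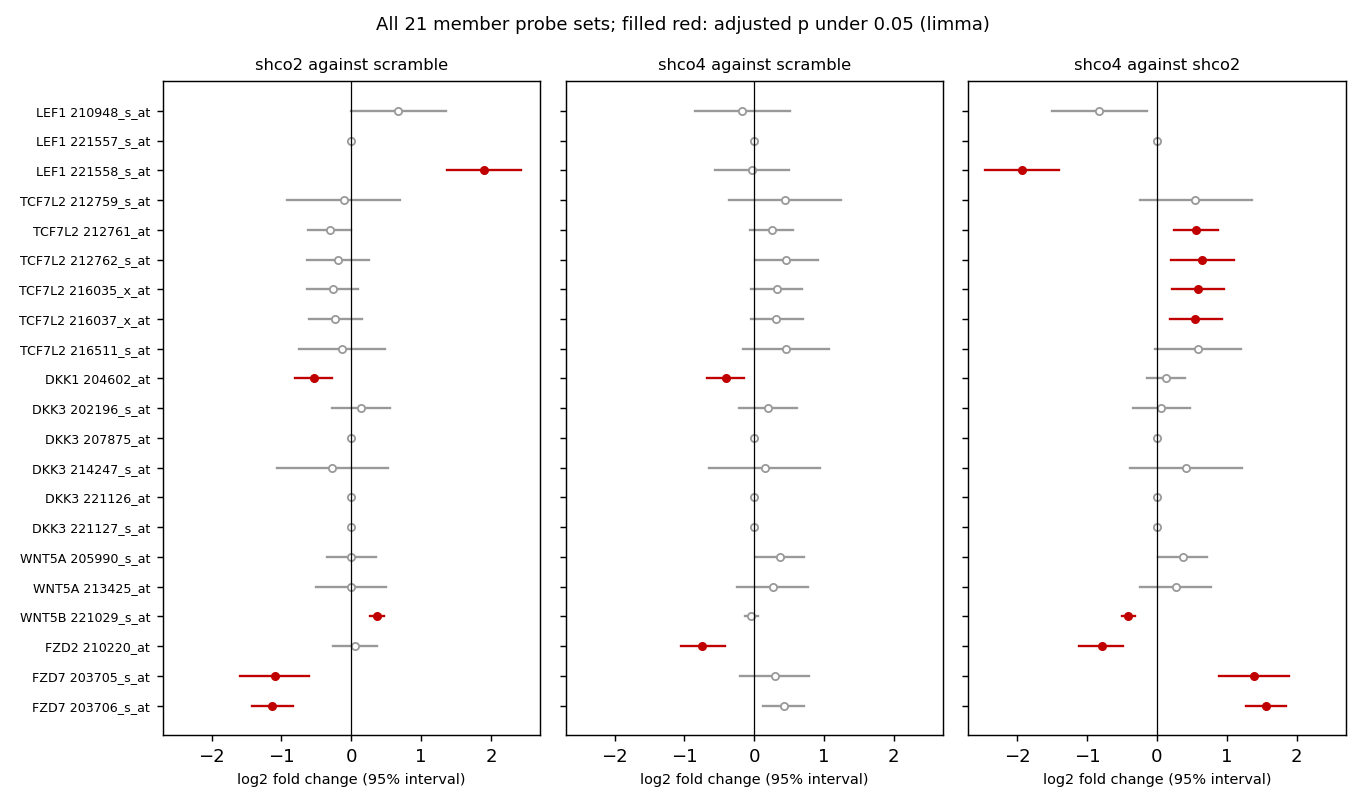
Log2 fold change (x axis) of each of the 21 probe sets (rows) with shco2 against scramble, shco4 against scramble and shco4 against shco2. Points are estimates, bars are 95% intervals from limma, and filled red marks an adjusted p under 0.05. With shco2 against scramble LEF1 221558_s_at lies at 1.90 and the FZD7 probe sets at -1.13 and -1.09, and with shco4 against shco2 they lie at -1.93, 1.56 and 1.39.

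Among the ligands, WNT5B, a ligand of the branches without beta-catenin, had intensities of 426, 419 and 418 with shco2, of 327, 306 and 320 with shco4 and of 321, 312 and 344 in scramble (221029_s_at). The 3 shco2 arrays lay above the other 6, which overlapped each other. WNT5B rose by 0.37 ± 0.04 (log2) with shco2 (SE, 3 arrays a group), that is 1.29-fold (limma adjusted p = 0.0019). With shco4 the difference from scramble was -0.04, with a 95% interval of -0.13 to 0.06 (adjusted p = 0.661). It was lower with shco4 than with shco2 by -0.41 ± 0.04 (adjusted p = 0.000658). WNT5A, its close relative, was at or near the floor. Its 2 probe sets were under 16 on all 3 arrays with shco2 and all 3 in scramble, and reached 24.0 and 28.0 at most with shco4, at which neither passed. One of them, 205990_s_at, passed for shco4 against scramble once shco4 replicate 3 was left out (log2 fold change 0.56, adjusted p = 0.000277), and likewise for shco4 against shco2 (0.56, adjusted p = 0.000173). Setting values to 16 left the shco2 and scramble arrays with no spread, so these p-values do not measure a change of WNT5A. With a floor of 64 and all 9 arrays both differences were 0.0.

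Among the receptors, FZD7, a Frizzled protein that can carry both canonical and other Wnt signals, was read by 2 probe sets. The probe set 203706_s_at had 759, 847 and 648 with shco2, 2419, 2042 and 2146 with shco4 and 1780, 1662 and 1478 in scramble. The 3 groups did not overlap, with shco2 the lowest and shco4 the highest. FZD7 fell by 1.13 ± 0.12 on the log2 scale with shco2 (SE, 3 arrays a group), that is 2.19-fold (adjusted p = 0.00169). With shco4 the difference from scramble was 0.43 ± 0.12 with an interval of 0.13 to 0.72, which did not pass (adjusted p = 0.0557). It passed when replicate number was blocked (adjusted p = 0.0436), with medians centred (adjusted p = 0.0459), with either filter on dim probe sets (adjusted p = 0.0306 and 0.0479) and without shco2 replicate 3 (adjusted p = 0.0428). Between the hairpins FZD7 was higher with shco4 than with shco2 by 1.56 ± 0.12, or 2.94-fold (adjusted p = 0.000258).

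The second FZD7 probe set, 203705_s_at, had 814, 668 and 649 with shco2, 2344, 1596 and 1701 with shco4 and 1840, 1536 and 1216 in scramble. Here the shco2 arrays again lay below the other 6, while shco4 and scramble overlapped. It fell by 1.09 ± 0.21 with shco2 (adjusted p = 0.0123), differed by 0.30 with shco4 (interval -0.20 to 0.79, adjusted p = 0.427), and was 1.39 ± 0.21 higher with shco4 than with shco2 (adjusted p = 0.00295).

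FZD2, a Frizzled known as a receptor for WNT5A, had 798, 1037 and 1102 with shco2, 522, 555 and 608 with shco4 and 955, 860 and 990 in scramble (210220_at). All 3 shco4 arrays lay below the other 6, and shco2 and scramble overlapped. It fell by 0.74 ± 0.13 with shco4 (SE, 3 arrays a group), that is 1.67-fold (adjusted p = 0.0114). With shco2 the difference from scramble was 0.06, with an interval of -0.26 to 0.37 (adjusted p = 0.935). FZD2 was lower with shco4 than with shco2 by -0.79 ± 0.13 (adjusted p = 0.00462). The lines in which FZD7 and FZD2 fell against scramble were thus different ones, and for each gene the difference between the hairpins itself passed.

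**Figure D2:**
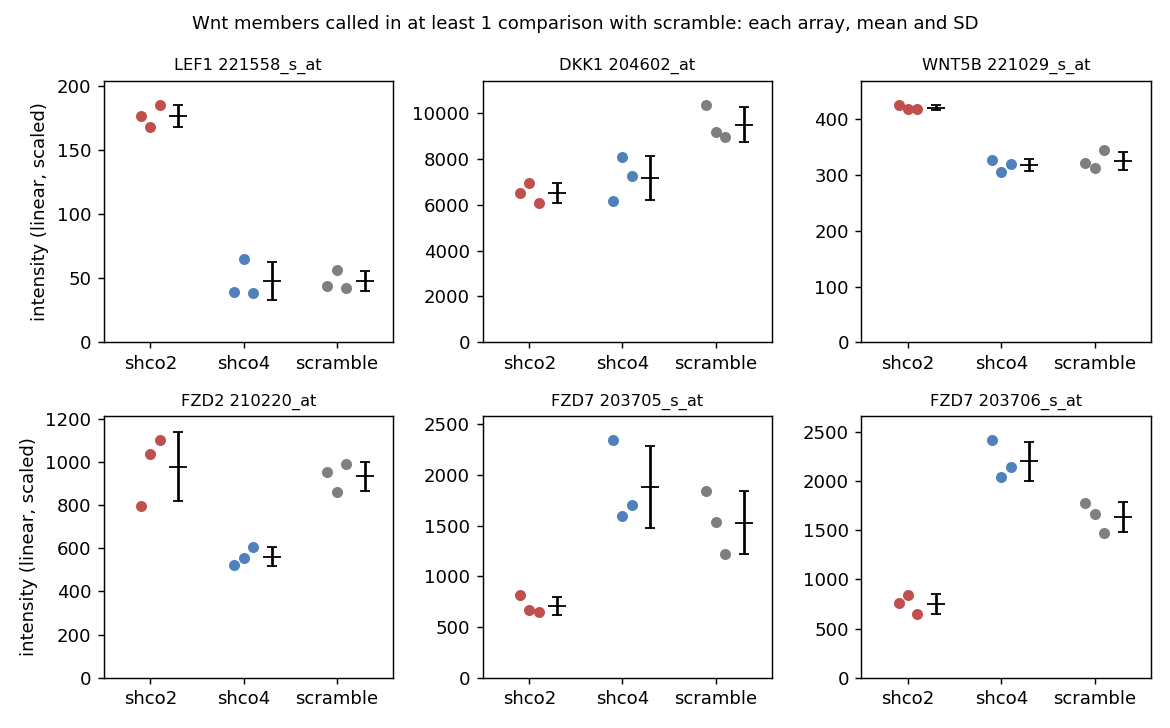
Intensity on the authors' linear scale (y axis, from 0) of the 6 probe sets that passed in at least 1 comparison with scramble, on each of 3 arrays with shco2, with shco4 and in scramble; the black bar is the mean with its SD. LEF1 is near 176 on the shco2 arrays and at most 64.9 on the other 6, FZD7 is lowest with shco2, FZD2 is lowest with shco4, and DKK1 is highest in scramble.

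Among the secreted inhibitors, DKK1, which binds the co-receptors LRP5 and LRP6 and so blocks canonical signals, was lower in both hairpin lines. It is itself a known target of beta-catenin. Its intensity was 6501, 6943 and 6099 with shco2, 6159, 8094 and 7247 with shco4 and 10364, 9184 and 8957 in scramble (204602_at). Every scramble array lay above every hairpin array, and the hairpin lines overlapped. DKK1 fell by 0.54 ± 0.11 on the log2 scale with shco2 (SE, 3 arrays a group), that is 1.46-fold (adjusted p = 0.0168). This call did not hold when 1 of 3 arrays was dropped, namely scramble replicate 1 (adjusted p = 0.054), shco2 replicate 1 (adjusted p = 0.0532) and shco2 replicate 3 (adjusted p = 0.0593). With shco4 it fell by 0.41 ± 0.11, or 1.33-fold, close to the threshold (adjusted p = 0.0472).

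The shco4 call of DKK1 ended when replicate number was blocked (adjusted p = 0.0755), under 5 other alternatives (adjusted p = 0.0515 to 0.11) and whenever an array other than shco4 replicate 2 was left out. In replicate order the adjusted p was then 0.0753, 0.0679 and 0.0691 with an shco2 array dropped, 0.0896 and 0.0973 with shco4 replicate 1 or 3 dropped, and 0.131, 0.103 and 0.0775 with a scramble array dropped. The hairpins differed from each other by 0.13 (shco4 minus shco2, interval -0.14 to 0.40, adjusted p = 0.468). Both comparisons with scramble use the same 3 scramble arrays, so that a lower level with both hairpins cannot be told apart from a higher level in the scramble line.

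DKK3, a member of the Dickkopf family that differs from DKK1 in its action, was at or near the floor. Of its 5 probe sets, 207875_at and 221127_s_at were under 16 on all 9 arrays, and 221126_at did not exceed 16. The highest level of DKK3 was 41.0, at 214247_s_at with shco4, and none of the 5 passed in any of the 3 comparisons. With log2(intensity + 16), 221126_at passed for shco4 against shco2 (0.51, adjusted p = 0.0483).

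Among the nuclear factors, LEF1, a partner of beta-catenin on DNA and in many tissues its target, was higher with shco2. The probe set 221558_s_at had 176, 168 and 185 with shco2, 39.2, 64.9 and 38.7 with shco4 and 44.2, 56.4 and 42.3 in scramble. The shco2 arrays lay far above the other 6, and shco4 and scramble overlapped. LEF1 rose with shco2 by 1.90 ± 0.22 (SE, 3 arrays a group), that is 3.73-fold (adjusted p = 0.0022). With shco4 the difference from scramble was -0.03, with an interval of -0.56 to 0.50 (adjusted p = 1). It was lower with shco4 than with shco2 by -1.93 ± 0.22, or 3.82-fold (adjusted p = 0.00103). With a floor of 64 in place of 16, at which most of the shco4 and all of the scramble values lie under the floor, the differences were 1.46 and -1.46 and passed too.

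The other LEF1 probe sets were dimmer. At 210948_s_at the intensity was 34.0, 31.2 and 30.4 with shco2, 22.4, 8.48 and 15.4 with shco4 and 13.3, 31.3 and 16.1 in scramble. Scramble replicate 2 reached the shco2 level, so these groups overlapped. The difference for shco2 against scramble was 0.67 ± 0.28 (adjusted p = 0.167), and without scramble replicate 2 it was 0.99 and passed (adjusted p = 0.0152). That for shco4 against shco2 was -0.83 ± 0.28 (adjusted p = 0.0705), and passed without scramble replicate 2 (adjusted p = 0.00949), with only the 6 arrays compared (adjusted p = 0.0232), without probe sets at the floor on all arrays (adjusted p = 0.0385) and on the log2(intensity + 16) scale (-0.63, adjusted p = 0.0468). At 221557_s_at LEF1 lay under 16 on all 9 arrays.

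TCF7L2, the TCF factor through which canonical signals act in many epithelia, was read by 6 probe sets. At 212761_at it had 1022, 1433 and 1100 with shco2, 1784, 1729 and 1688 with shco4 and 1324, 1518 and 1535 in scramble. All shco4 arrays lay above the other 6, and shco2 and scramble overlapped. None of the 6 probe sets passed against scramble with either hairpin. The differences were -0.31, -0.11, -0.19, -0.26, -0.23 and -0.14 with shco2 and 0.25, 0.44, 0.46, 0.33, 0.32 and 0.45 with shco4, in the order 212761_at, 212759_s_at, 212762_s_at, 216035_x_at, 216037_x_at and 216511_s_at. Without shco2 replicate 2, 212761_at and 216035_x_at passed for shco2 against scramble (adjusted p = 0.016 and 0.0493). When replicate number was blocked 212762_s_at passed for shco4 against scramble (adjusted p = 0.014).

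At 212762_s_at TCF7L2 had 182, 243 and 194 with shco2, 280, 394 and 301 with shco4 and 193, 266 and 247 in scramble. At 216035_x_at it had 430, 610 and 441 with shco2, 719, 776 and 706 with shco4 and 510, 639 and 614 in scramble. At 216037_x_at it had 413, 571 and 481 with shco2, 716, 821 and 611 with shco4 and 511, 618 and 580 in scramble. The shco4 arrays lay above every shco2 array at each of these. Between the hairpins, 4 of the 6 TCF7L2 probe sets were higher with shco4 than with shco2. The differences were 0.56 ± 0.13 at 212761_at (adjusted p = 0.0166), 0.65 ± 0.19 at 212762_s_at (adjusted p = 0.0398), 0.59 ± 0.15 at 216035_x_at (adjusted p = 0.027) and 0.55 ± 0.16 at 216037_x_at (adjusted p = 0.0367). At 212759_s_at and 216511_s_at it was 0.55 and 0.59 and did not pass (adjusted p = 0.299 and 0.145). These probe sets share 1 gene and are not separate evidence, and those ending in _x_at may also bind other transcripts. The calls hung on single arrays. That at 212761_at ended without shco2 replicate 3 (adjusted p = 0.058) or shco4 replicate 1 (adjusted p = 0.0531). That at 212762_s_at was lost on dropping shco2 replicate 1 or 3, shco4 replicate 2 or 3, or scramble replicate 2 or 3 (adjusted p = 0.12, 0.113, 0.102, 0.0725, 0.0517 and 0.0629). That at 216035_x_at ended without shco2 replicate 1 or 3 or any shco4 array (adjusted p = 0.0834, 0.087, 0.0659, 0.0825 and 0.0593), and that at 216037_x_at on dropping shco2 replicate 1 or 3, shco4 replicate 1 or 2, or scramble replicate 2 or 3 (adjusted p = 0.101, 0.0955, 0.0925, 0.104, 0.054 and 0.061).

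**Figure D3:**
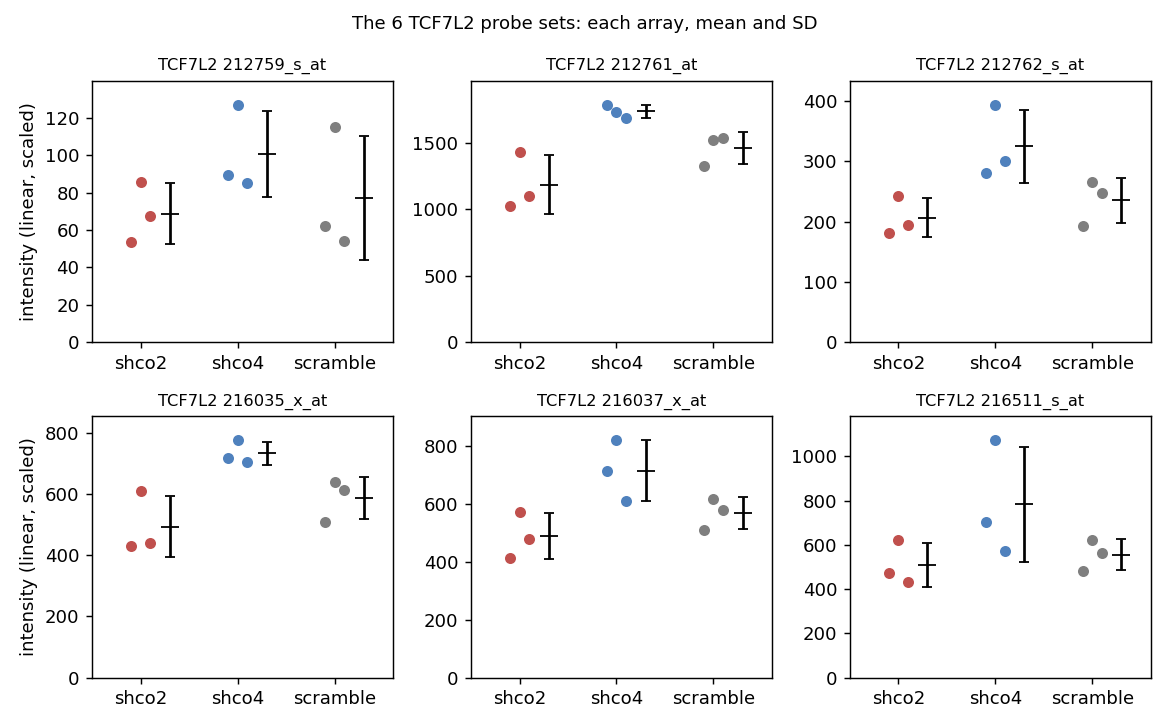
Intensity on the authors' linear scale (y axis, from 0) of the 6 TCF7L2 probe sets on each array with shco2, with shco4 and in scramble, with the mean and SD in black. In all 6 panels the shco4 mean is the highest and the shco2 mean the lowest, and no difference from scramble passed.

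Set side by side, LEF1, FZD7 and DKK1 had different orders over the 3 lines. LEF1 (221558_s_at) averaged 176 ± 8.92 with shco2, 47.6 ± 15 with shco4 and 47.6 ± 7.67 in scramble (SD, n = 3 each), so only shco2 stood apart. FZD7 (203706_s_at) averaged 751 ± 99.4, 2202 ± 195 and 1640 ± 152 in these groups, so shco2 lay lowest, and the neighbours shco4 and scramble missed the threshold. DKK1 averaged 6514 ± 422, 7167 ± 970 and 9502 ± 756, so scramble lay highest, and the difference between the hairpin lines did not pass. In the shco2 line LEF1 was higher, and the known targets DKK1 and FZD7 were lower. DKK1 was lower with shco4 too, where LEF1 averaged the same as in scramble, and neither DKK1 call held with every array left out. A link between these genes was not tested.

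The genes whose levels over the 9 arrays were most like that of LEF1 were SS18 (Pearson r = 0.985), ALDH18A1 (r = 0.982), GEMIN2 (r = 0.981) and MGAT4A (r = 0.980), among 11666 probe sets with a mean of at least 64. MGAT4A, for example, averaged 104 with shco2, 48.9 with shco4 and 42.2 in scramble. For DKK1 they were CDA (r = 0.966), TUBB4B (r = 0.961), FN3KRP (r = 0.960) and TPI1 (r = 0.960). For FZD7 they were CRISPLD2 (r = 0.992), UBE2Z (r = 0.991), SLC35A5 (r = 0.990) and TRIM2 (r = 0.990), and CRISPLD2 averaged 106 with shco2, 616 with shco4 and 330 in scramble. These r describe 9 arrays that fall into 3 lines, and the arrays of a line share its cells.

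Beyond the members, the pathway was read with 8 lists of genes, each gene by its brightest probe set. Of all genes read so, 24.3% passed with shco2 (13.3% up and 11.0% down), 22.2% with shco4 (10.7% up and 11.6% down) and 35.4% between the hairpins (16.1% up and 19.4% down with shco4). These shares include dim genes, so they are a low background for lists of bright genes. Of the 13667 probe sets that averaged 64 or more in a group, fitted alone, 5324 passed with shco2, 4892 with shco4 and 7315 between the hairpins. Of all 22215 probe sets these counts were 4589, 4178 and 6881. The only secretion or R-spondin gene with a probe set, WLS, did not pass. The median log2 fold change with shco2 and then shco4 was 0.00 and 0.00 for ligands, -0.11 and 0.02 for receptors, -0.13 and -0.05 for inhibitors, 0.21 and 0.11 for cytoplasmic genes, -0.15 and 0.01 for nuclear genes and -0.06 and 0.00 for planar polarity genes. Over all genes it was 0.00 in both. Of 13 Wnt ligands only WNT5B passed in any comparison, and with WNT6 it was also the only ligand that averaged 64 or more in any group. Of 17 receptors and co-receptors, 2 rose and 1 fell with shco2, and 3 rose and 1 fell with shco4. FZD6, a Frizzled linked to cell polarity, rose with shco2 by 0.62 ± 0.09 (adjusted p = 0.00526) and differed by 0.33 with shco4 (adjusted p = 0.054, and 0.0377 when replicate number was blocked). ROR1, a receptor kinase for WNT5A, rose with shco4 by 0.56 ± 0.09 (adjusted p = 0.0078) and differed by -0.16 with shco2 (adjusted p = 0.286), although its dimmer probe set 211057_at fell by 0.54 with shco2 (adjusted p = 0.0317). LGR5, an R-spondin receptor and stem cell marker, had 51.1, 59.1 and 72.5 with shco4 and 17.6, 13.7 and 19.7 in scramble, and rose by 1.77 ± 0.13 (adjusted p = 0.000682), but differed by 0.06 with a floor of 64, which did not pass. Its other probe set, 210393_at, did not pass either (0.48, adjusted p = 0.129).

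Of 12 secreted and surface inhibitors, DKK1 was the only one that passed against scramble. RNF43, a ligase that removes Frizzled from the surface, was 1.40 higher with shco4 than with shco2. Apart from DKK1 and RNF43, no inhibitor averaged more than 36.1 in any group (DKK3 with shco4). Among the 12, 3 were at the floor on all arrays. That these dim genes did not pass thus says little about them. Of 16 cytoplasmic genes of the beta-catenin branch, 5 rose and 1 fell with shco2, and 5 rose and 0 fell with shco4. The shares over all genes were 13.3% up and 11.0% down with shco2, and 10.7% up and 11.6% down with shco4. DVL3, a Dishevelled protein that relays the signal from Frizzled, fell by 0.68 ± 0.08 with shco2 (adjusted p = 0.00252) and differed by 0.14 with shco4 (adjusted p = 0.339). Its dimmer probe set, 201907_x_at, had the opposite sign, with 0.68 for shco2 against scramble (adjusted p = 0.488) and -0.91 for shco4 against shco2 (adjusted p = 0.282), and did not pass. BTRC, the F-box protein that marks beta-catenin for destruction, rose with shco2 by 0.57 ± 0.09 (adjusted p = 0.00617) and differed by -0.25 with shco4 (adjusted p = 0.113), and neither of its other probe sets passed against scramble. Its relative FBXW11 rose with shco4 by 0.43 ± 0.08 (adjusted p = 0.0112), and its other probe set, 209456_s_at, did not pass (0.26, adjusted p = 0.334). CSNK1A1, a kinase of the destruction complex, rose by 0.19 ± 0.02 with shco2 and 0.09 ± 0.02 with shco4 (adjusted p = 0.00225 and 0.0376) at its brightest probe set. Of its 6 other probe sets, 213086_s_at passed with shco2 (0.23, adjusted p = 0.0346) and none with shco4. At the brightest, the shco2 call was lost under 3 alternatives (adjusted p = 0.094 to 0.157). The shco4 call was lost when replicate number was blocked (adjusted p = 0.0525), under 6 further alternatives and on dropping any of 7 arrays (adjusted p up to 0.538).

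Of 15 TCF factors and nuclear cofactors, 4 rose and 2 fell with shco2, and 3 rose and 3 fell with shco4. The shares over all genes were 13.3% up and 11.0% down with shco2, and 10.7% up and 11.6% down with shco4. CTNNBIP1, also called ICAT, which binds beta-catenin and keeps it from TCF factors, had 198, 192 and 212 with shco2, 759, 916 and 823 with shco4 and 574, 541 and 507 in scramble. The 3 groups did not overlap. CTNNBIP1 fell by 1.43 ± 0.08 with shco2 (SE, n = 3, adjusted p = 0.000223) and rose with shco4 by 0.62 ± 0.08 (adjusted p = 0.00385), and was 2.05 higher with shco4 than with shco2 (adjusted p = 4.07e-05). TLE3, a corepressor of TCF factors, fell by 1.09 ± 0.18 with shco2 (adjusted p = 0.00747) and differed by 0.16 with shco4 (adjusted p = 0.646). Its other 2 probe sets, at -0.34 and -0.24 with shco2, did not pass. CTBP2, another corepressor, rose with shco4 by 0.27 ± 0.05 (adjusted p = 0.00973) at 1 of its 6 probe sets, a call lost with log2(intensity + 16) (adjusted p = 0.0672).

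Of 14 known targets of beta-catenin and TCF, 1 rose and 7 fell with shco2, and 2 rose and 2 fell with shco4. Of all genes 13.3% rose and 11.0% fell with shco2, and 10.7% rose and 11.6% fell with shco4. LEF1, DKK1 and FZD7 are members counted here again, and the list was chosen with earlier results of these data known. The median log2 fold change of these 14 was -0.47 with shco2 and 0.00 with shco4, and 0.00 over all genes in both comparisons. LEF1 was the target that rose with shco2. BMP4, a BMP ligand, was among those that fell, with 573, 732 and 692 with shco2, 3244, 3004 and 2828 with shco4 and 2893, 2527 and 2538 in scramble. BMP4 fell by 2.00 ± 0.11 with shco2 (adjusted p = 0.000212), and its level with shco4 was 2.19 above that with shco2 (adjusted p = 6.2e-05). Most of these genes answer to other pathways too.

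Of 15 genes of planar polarity and the other branches, 2 rose and 2 fell with shco2, and 3 rose and 1 fell with shco4. The shares over all genes were 13.3% up and 11.0% down with shco2, and 10.7% up and 11.6% down with shco4. DAAM1, a formin that binds Dishevelled, had 195, 212 and 248 with shco2, 658, 599 and 581 with shco4 and 621, 603 and 676 in scramble. It fell by 1.54 ± 0.10 with shco2 (adjusted p = 0.000348) and differed by -0.05 with shco4 (adjusted p = 0.881). CELSR2, a cadherin of the polarity system, fell by 1.03 ± 0.09 with shco4 (adjusted p = 0.000945) and differed by -0.10 with shco2 (adjusted p = 0.531). RAC1, a small GTPase, fell by 0.19 ± 0.03 with shco2 (adjusted p = 0.00872) and rose with shco4 by 0.27 ± 0.03 (adjusted p = 0.00318). At its other probe set, 208641_s_at, neither passed (-0.01 with shco2, adjusted p = 1, and 0.29 with shco4, adjusted p = 0.0512). The shco2 difference at the brighter one was -0.08 after quantile normalization (adjusted p = 0.39), and its shco4 difference was then 0.17 (adjusted p = 0.0763). On 4 further alternatives the shco2 difference did not pass (adjusted p = 0.0911 to 0.152), nor did the shco4 one with log2(intensity + 16) (adjusted p = 0.0573). The count of genes from the 8 lists that passed for shco4 against scramble was 21, and 12 without scramble replicate 1. Of all genes 22.2% passed in this comparison, and without that array 2931 of all probe sets passed in place of 4178. Some genes are on more than 1 list, and no share of the pooled lists was computed.

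**Figure D4:**
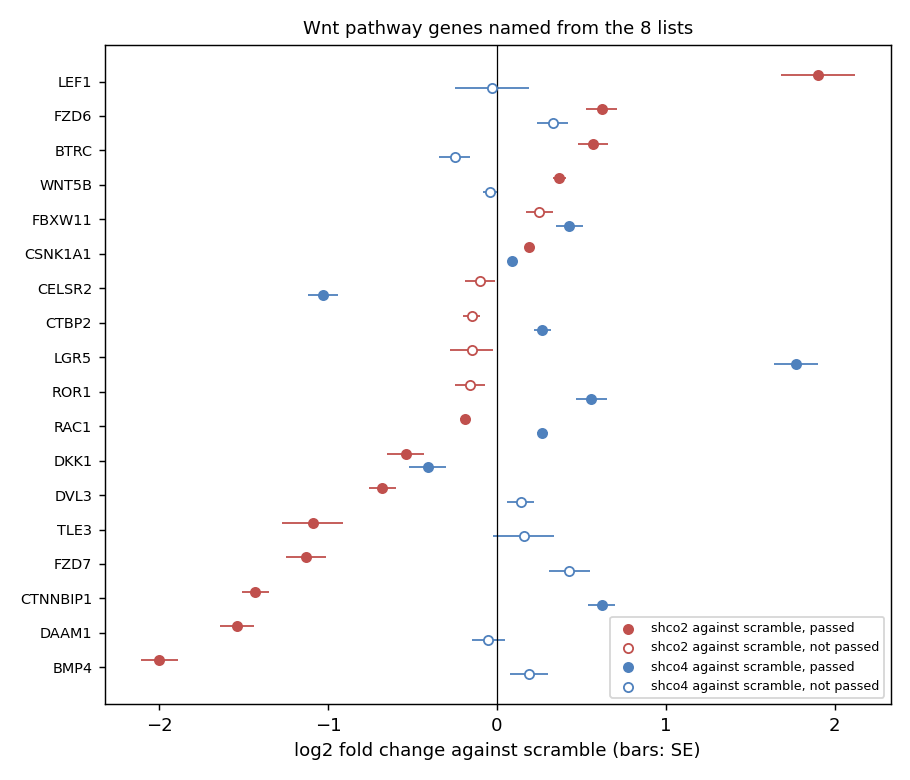
Log2 fold change against scramble (x axis) of the 18 genes named from the 8 lists (rows), in red for shco2 and in blue for shco4. Bars are SE, and filled points passed at an adjusted p under 0.05. CTNNBIP1 and RAC1 are filled on opposite sides of 0, DKK1 and CSNK1A1 on the same side, and the other 14 are filled for only 1 hairpin.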

How the data were processed

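Biotin-labelled cRNA from 200 ng of total RNA of each of 9 samples had been hybridized to Affymetrix 3′ arrays, per the labels' protocols. The deposited table holds linear intensity values of 22277 probe sets, already scaled by the authors: leaving out the lowest and highest 2%, each array averaged 500.11 to 500.14, as computed here. The sources used here do not name software or summary method. The 62 control probe sets were left out. Of the others 19064 had 1 symbol, 1043 several and 2108 none.

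Lower intensities were raised to 16 before log2, which left 2611 probe sets at that floor on all arrays. Group means were estimated with limma 3.58.1 in R 4.3.3 from all 9 arrays (prior degrees of freedom 0.53). The same fit was also tried on simulated data with known changes, of which no value is given here. Tests are two-sided. Folds are 2 to the power of the log2 difference.

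Members and lists were chosen with earlier results of these data known. Named were all member probe sets, up to 4 genes per list with the smallest p among those called in a comparison with scramble, and the 4 genes most like LEF1, DKK1 and FZD7. Same-numbered shco4 and scramble arrays deviated from their means together (r 0.133 to 0.236), so these numbers may be pairs, judged from the correlation alone. The main fit, which gave the calls, did not use these pairs, and the block did so as an alternative. For shco2 and scramble (0.0567 to 0.289) and for the hairpins (0.0576 to 0.214) the numbers were not taken as pairs. Yet in 18 of 18 cases an array's best match in another line was its own number. Pairs across all lines, shco2 included, are thus possible, and the main fit leaves them out. The block was fitted across all lines. Alternatives were quantile normalization, median centring, a floor of 64, log2(intensity + 16), filters on dim probe sets, another variance model, fits to 6 arrays, the replicate block and each array left out. Promoter sequences came from RefSeq.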

Additional observations from a re-analysis of the deposited data

Results flagged for a closer look

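Both hairpins were set against the same scramble arrays, and the test of shco4 against shco2 asks whether their effects differ. It passed for 9 member probe sets, by limma with an adjusted p under 0.05. The differences (shco4 minus shco2, log2, n = 3 arrays each) were -1.93 for LEF1 at 221558_s_at, 1.56 and 1.39 for FZD7 at 203706_s_at and 203705_s_at, -0.79 for FZD2 and -0.41 for WNT5B. They were 0.56, 0.65, 0.59 and 0.55 for TCF7L2 at 212761_at, 212762_s_at, 216035_x_at and 216037_x_at. The calls for LEF1, FZD7, FZD2 and WNT5B survived the loss of any 1 array and every other alternative, and those for TCF7L2 did not. Over all probe sets 31.0% passed in this comparison.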

How the results depend on the processing

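Of the 16 calls among the member probe sets over the 3 comparisons, 10 held with every array left out in turn and under every other alternative tried: LEF1 221558_s_at, WNT5B and both FZD7 probe sets in 2 comparisons each, and FZD2 in 2. The other 6 were the DKK1 calls with both hairpins and the 4 of TCF7L2 between the hairpins. For shco2 against scramble 5 probe sets passed under each alternative, and 4 to 7 with arrays left out. For shco4 against scramble the 2 down became 2 up and 1 down with the block and 1 up and 1 down with medians centred, and 1 in place of 2 passed with a floor of 64, with log2(intensity + 16), with eBayes with trend and robust and with only the 6 arrays compared, and 1 to 2 with arrays left out. For shco4 against shco2 it was 5 to 9 with arrays left out, in place of 9. The list genes that passed for shco4 against scramble numbered 12 to 20 with arrays left out, in place of 21. Alternatives for the lists were added after the data were seen. When replicate number was blocked, 5, 3 and 10 member probe sets passed in place of 5, 2 and 9, and 28, 23 and 42 list genes in place of 26, 21 and 36. Without the block 24.3%, 22.2% and 35.4% of all genes passed in these comparisons. The counts over all probe sets grew with the block too, from 4589, 4178 and 6881 to 5345, 4913 and 7581. The block also let TCF7L2 216511_s_at (adjusted p = 0.042) and FZD6 (adjusted p = 0.0356) pass between the hairpins and ROR1 pass with shco2 (adjusted p = 0.0273). In 18 of 18 cases the best match of an array in another line was its own number, a hint from the data. Only differences that did not pass changed sign. WNT5B with shco4 was 0.01 and DKK1 between the hairpins was -0.06 after quantile normalization, LEF1 221558_s_at with shco4 was 0.01 with a floor of 64, and DKK3 202196_s_at with shco2 was -0.26 with log2(intensity + 16). With arrays left out, differences for shco2 against scramble spanned -0.32 to 0.22 for TCF7L2 212759_s_at, -0.04 to 0.2 for FZD2, -0.53 to 0.11 for DKK3 214247_s_at and -0.01 to 0.21 for DKK3 202196_s_at, which spanned -0.1 to 0.21 between the hairpins. For shco4 against scramble they spanned -0.33 to 0.16 for LEF1 210948_s_at, -0.28 to 0.1 for LEF1 221558_s_at and -0.07 to 0.01 for WNT5B. The cause of these changes was not tested. With a floor of 16, changes of WNT5A, DKK3 and the dim LEF1 probe sets cannot be read.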
